A study of Drosophila melanogaster with 3 samples.

Results

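The cardiac and visceral mesoderm genes considered here are tin, bap, org-1, Doc1, Doc2, Doc3, Hand, H15 and mid, which encode transcription factors, and Fas3, which encodes an adhesion protein. They were chosen by gene symbol in the Ensembl annotation of the fly genome, and they are 10 of the 13945 protein-coding genes on the main chromosome arms. All 10 symbols matched a single gene. The chromatin immunoprecipitation sequencing (ChIP-seq) experiment used embryos of Drosophila melanogaster, males and females together, collected at 8 to 14 hours of age according to the source name. They came from 1 transgenic strain, fd64A-GFP, in which the forkhead factor fd64A (FoxL1) is stably expressed with a green fluorescent protein (GFP) tag on its C terminus. There were 3 biological replicates in 1 group, with no second condition, and input chromatin served the authors as the control for calling peaks. Whole embryos were used, so a peak cannot be assigned to the heart, the gut muscle or any other tissue.

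In the fly embryo the dorsal mesoderm gives rise to the heart tube and to the muscle layer of the gut, the visceral mesoderm. The NK homeodomain protein Tinman specifies dorsal mesoderm, and T-box, GATA and Hand factors then act in heart cells. Bagpipe and the forkhead protein Biniou act in the visceral mesoderm. Forkhead proteins bind short A- and T-rich DNA words. The word ATAAACA was searched on both strands, together with the word ATAAATA, the word GTAAACA and the word GTAAATA, and these are called forkhead words below.

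Peaks at these genes were read from 5 deposited lists on the dm6 assembly. The authors' final list held 2919 peaks that passed a threshold on the irreproducible discovery rate (IDR), a measure of how well peaks repeat between replicates. Each replicate and the pool of replicates had a relaxed list of 30000 peaks and background. Peaks were ranked by the authors' signal within each list, with rank 1 the strongest. The IDR ranks are the same as the ranks in the pooled list, so the IDR list is the strongest 2919 pooled peaks. As a yardstick, the strongest 2919 peaks of each replicate were called its leading peaks. Within 250 bp, 394 of the IDR summits had a leading peak in only 1 replicate and 24 had one in none. A place on the IDR list therefore does not by itself show that a peak was strong in every replicate. Replicate 1 had 4964 peaks with a deposited q under 0.05, replicate 2 had 3017 and replicate 3 had the fewest, 1598. No read totals accompany the lists, so the depth is unknown. A gene carried a peak where a summit lay between 2000 bp upstream of its most upstream transcription start site (TSS) and its end, a stretch called its span. Most peaks had 1 fixed width, 404 bp for 71.2% of the IDR list, with the summit at the centre.

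FoxL1-GFP peaks of the IDR list lay at 4 of the 10 genes, tin, org-1, Doc1 and Fas3. Over all protein-coding genes the share was 16.9% (2362 of 13945), but the median span was 6.82 kb for the 10 genes and 4.17 kb for all, and a longer span offers more places for a summit. The 4 genes held 6 summits, 1 each at tin, org-1 and Doc1 and 3 at Fas3. Among protein-coding genes with spans 0.8 to 1.2 times as long, the share with an IDR summit was 13.0% for tin, 26.0% for org-1, 15.9% for Doc1 and 59.5% for Fas3. No IDR summit lay in the spans of bap, Doc2, Doc3, Hand, H15 or mid, whose genes of like span had shares from 10.1% (bap) to 33.7% (H15). Leading peaks of each replicate fell at the same 4 genes in all 3 replicates (4 ± 0 genes, mean ± SD, n = 3), against 16.9%, 17.2% and 16.2% of all protein-coding genes in replicates 1, 2 and 3. The pooled and IDR lists were made from these same 3 replicates, so finding the same genes again is not independent support. In the relaxed pooled list 8 of the 10 genes carried a summit, against 68.5% of all genes. The relaxed lists gave 9 of 10 genes in replicate 1, against 68.2% of all genes, 8 in replicate 2, against 69.8%, and 8 in replicate 3, against 70.6%. Since most genes carry a relaxed summit, these counts were not read further. No p-value is given for these counts, since the genes were chosen with results of these data known.

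**Figure D1:**
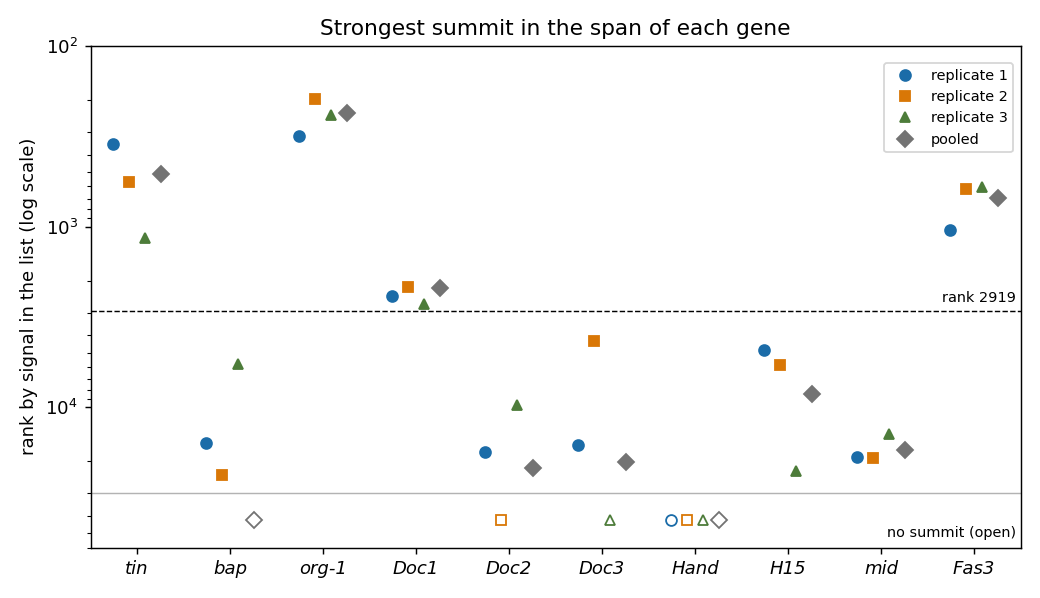
Rank of the strongest summit in the span of each gene (y axis, log scale, strongest at the top) in the lists of replicates 1, 2 and 3 and of the pool, with open symbols below the grey line where a list had no summit. The dashed line marks rank 2919, and only tin, org-1, Doc1 and Fas3 lie above it, in all 3 replicates and the pool.

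The 6 summits are shown here as the 101 bases centred on each one (plus strand of the dm6 assembly, 5′ to 3′, from RefSeq's release 6 sequence), because they are the places where the result rests. Capitals mark forkhead words.
org-1, rank 236, chrX:8455361-8455461: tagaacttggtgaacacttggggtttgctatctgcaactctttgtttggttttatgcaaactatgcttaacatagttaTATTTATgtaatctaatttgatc
tin, rank 511, chr3R:21378686-21378786: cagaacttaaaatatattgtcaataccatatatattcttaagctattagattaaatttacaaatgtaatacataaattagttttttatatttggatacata
Fas3, rank 699, chr2L:18325230-18325330: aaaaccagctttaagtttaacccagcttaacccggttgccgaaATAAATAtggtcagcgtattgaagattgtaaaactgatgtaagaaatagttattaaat
Fas3, rank 1711, chr2L:18335804-18335904: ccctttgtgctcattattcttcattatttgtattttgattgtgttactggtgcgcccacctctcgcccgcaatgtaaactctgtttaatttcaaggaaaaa
Doc1, rank 2178, chr3L:9042769-9042869: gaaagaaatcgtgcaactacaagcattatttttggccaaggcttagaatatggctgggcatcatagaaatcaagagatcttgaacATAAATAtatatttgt
Fas3, rank 2376, chr2L:18328848-18328948: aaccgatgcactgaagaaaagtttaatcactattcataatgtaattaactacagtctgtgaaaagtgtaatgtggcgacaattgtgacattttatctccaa

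Of these 6 windows, 3 held a forkhead word, at org-1, Doc1 and the strongest Fas3 summit, against 29.9% of all 2919 IDR windows. The word was ATAAATA in each case, on the minus strand at org-1 and on the plus strand at Doc1 and Fas3. Its centre lay 4 bp from the strongest Fas3 summit, 31 bp from the org-1 summit and 38 bp from the Doc1 summit. Which windows held a word depended in part on where the summit was placed. The window at the replicate 3 summit of Doc1 held none. At Fas3, 1 forkhead word was in the window of the replicate 1 summit beside rank 1711 and of the replicate 2 summit beside rank 2376. The related word ACAAATA lay 23 bp from the Fas3 summit of rank 1711 and 47 bp from the Doc1 summit. Counting a second forkhead set that overlaps the first, made of ACAAACA and ACAAATA with the word ATAAACA and the word ATAAATA, 4 of the 6 windows held a word, against 30.5% of all IDR windows. The strictest word, GTAAACA, was in none of the 6 and in 8.12% of all IDR windows. None of the 6 windows held the Tinman word TNAAGTG (6.27% of IDR windows) or the T-box word AGGTGNGA (0.822%), both searched on both strands. A GATA word of the form AGATAA lay 43.5 bp from the Fas3 summit of rank 2376, and such words, with A or T first, were in 16.4% of all IDR windows. A word in a window is a description of the letters there and does not show that a protein bound it.

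The tin window had no forkhead word but was rich in A and T, at 82.2%, above the 75.2% that marks the 95th percentile of all IDR windows. The other 5 windows had 61.4% to 68.3% A and T, and the median of all IDR windows was 61.4%.

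org-1 (optomotor-blind-related-gene-1), a T-box gene with a vertebrate relative in Tbx1 that acts in founder cells of the visceral muscle, carried the strongest of the peaks. The gene lies at chrX:8447691-8455069 on the minus strand, and the peak covered chrX:8455305-8455532 with its summit 342 bp upstream of the outer TSS. Its rank was 315 in replicate 1, 196 in replicate 2 and 242 in replicate 3, with the replicate summits 6, 7 and 8 bp from the IDR summit. The deposited q was 0.000378, 0.000488 and 0.00067 in the 3 replicates and 0.000485 in the IDR list. No other gene's span contained this summit. The rest of the org-1 span was nearly empty, since the pooled list had no further summit there and the further replicate summits ranked 16492 and 18343 in replicate 1 and 16890 in replicate 2.

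tin (tinman), the NK homeobox gene at the head of heart specification and a relative of vertebrate Nkx2-5, had a promoter peak at chr3R:21378534-21378937. Its summit lay 241 bp upstream of the single TSS of tin, which is transcribed from the plus strand at chr3R:21378977-21381970. The summit of rank 511 had a rank of 349 in replicate 1, 569 in replicate 2 and 1158 in replicate 3. Replicates 1 and 2 gave a deposited q of 0.000378 and 0.000488, and replicate 3 gave 0.022. The replicate summits lay 37, 14 and 75 bp from the IDR summit, a wider scatter than at org-1, and replicate 3 had a second summit of rank 4742 in the same promoter, 113 bp upstream of the TSS. The summit also fell in the upstream part of the span of mod(mdg4), a chromatin protein gene on the minus strand, whose nearest TSS was 1335 bp away. A weaker pooled summit, of rank 14001, lay 1733 bp upstream of tin and within 500 bp of that mod(mdg4) TSS.

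Doc1, 1 of the 3 Dorsocross T-box genes of the amnioserosa and the heart, had its IDR peak in an intron. The peak covered chr3L:9042617-9043020 in a gene at chr3L:9041375-9045042, with the summit 990 bp downstream of the inner TSS and 1444 bp downstream of the outer one. It was a weak peak that repeated closely. Its IDR rank was 2178 and its rank was 2424, 2175 and 2682 in replicates 1, 2 and 3, with summits 10, 7 and 13 bp away. The deposited q was 0.00681 in replicate 1, 0.0218 in replicate 2 and 0.159 in replicate 3. In replicate 3 the peak was therefore leading by rank without passing a q of 0.05. At the Doc1 promoter the pooled list had a summit of rank 4933, 210 bp upstream of the outer TSS, with ranks of 4904, 9410 and 5977 within 250 bp in replicates 1, 2 and 3. Both stretches of Doc1 thus had a summit in every replicate, and in each replicate the intronic one ranked higher. The intronic summit also fell in the upstream part of the span of lncRNA:CR46451 on the minus strand, whose TSS was 1890 bp away.

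**Figure D2:**
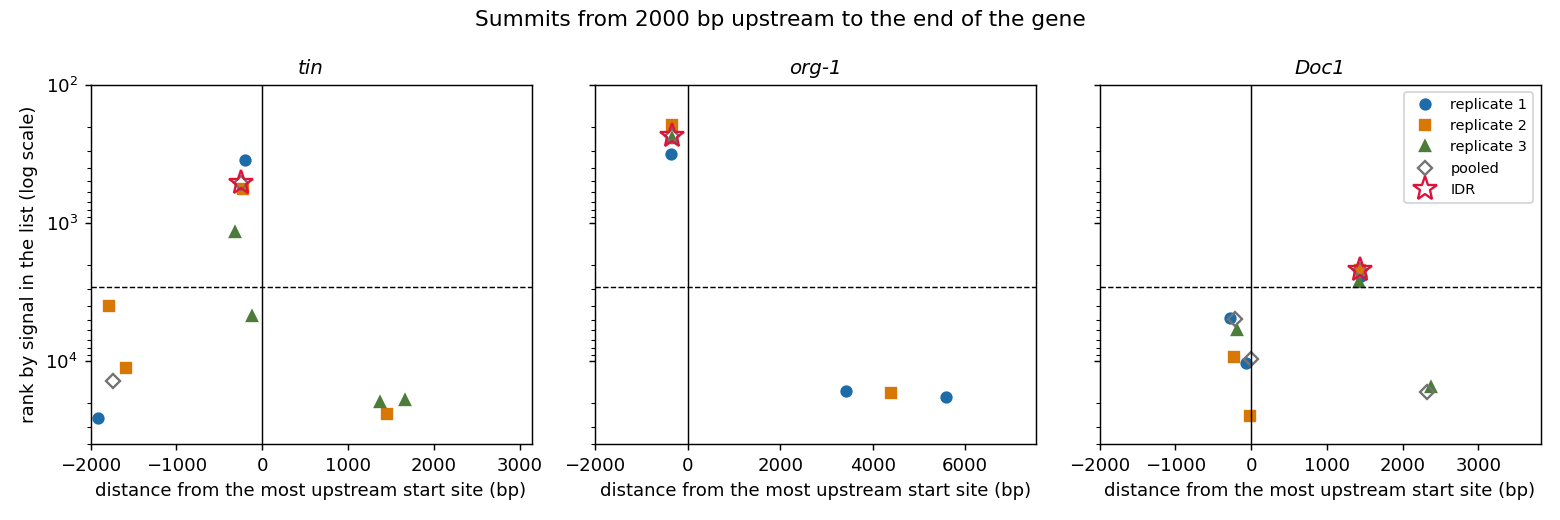
Every summit in the spans of tin, org-1 and Doc1 by its distance in bp from the most upstream TSS (x axis, along the direction of transcription) and its rank in its list (y axis, log scale, strongest at the top). Stars are IDR summits, diamonds pooled summits, and filled symbols the 3 replicates. The IDR summits lie 241 bp and 342 bp upstream at tin and org-1 and 1444 bp downstream at Doc1, each with 3 replicate summits beside it.

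Fas3 (Fasciclin 3), a homophilic cell adhesion protein of the immunoglobulin superfamily that marks the trunk visceral mesoderm, held 3 IDR summits. It is by far the longest of the 10 genes, at 73.3 kb on chr2L:18320102-18393441. Among the 131 other protein-coding genes with a span 0.8 to 1.2 times that of Fas3, 78 (59.5%) carried an IDR summit. The median of those 131 genes was 1 IDR summit, and 31 of them (23.7%) had 3 or more.

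All 3 summits lay in introns within the first 20 kb of the gene. The strongest, at chr2L:18325244-18325377, lay 5178 bp downstream of the TSS and was the one with a forkhead word 4 bp from its summit. It ranked 1050 in replicate 1, 618 in replicate 2 and 606 in replicate 3, with summits 0, 3 and 30 bp away. Its deposited q was 0.000378, 0.000488 and 0.00067 in replicates 1, 2 and 3. The summit at 15752 bp came from the peak chr2L:18335652-18336055. Its rank was very even between replicates, at 1818, 1750 and 1815 beside an IDR rank of 1711. Its deposited q was 0.00248 in replicate 1, 0.00829 in replicate 2 and 0.0697 in replicate 3. In replicate 3 this peak was thus leading by rank without passing a q of 0.05. The summit at 8796 bp, from chr2L:18328696-18329099, ranked 3329 in replicate 1, 3754 in replicate 2 and 1750 in replicate 3, beside an IDR rank of 2376. Its deposited q was 0.0176, 0.0747 and 0.066 in replicates 1, 2 and 3, under 0.05 in replicate 1 only. This summit was a leading peak of replicate 3 but not of replicates 1 and 2. It was the only one of the 6 IDR summits without a leading peak within 250 bp in every replicate. Counted over all 2919 IDR summits, 57.6% had a leading peak that near in all 3 replicates.

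The Fas3 promoter fell just outside the IDR list. A pooled summit 37 bp downstream of the TSS ranked 3566, and the summits within 250 bp of it ranked 5778 in replicate 1, 2559 in replicate 2 and 2615 in replicate 3. Replicates 2 and 3 thus had a leading peak at this promoter and replicate 1 did not. Along the whole span the pooled list had 26 summits, against a median of 13 in the 131 genes of like span, of which 25 had 26 or more. Of the 26, 1 lay upstream, 14 in the first 20 kb, 6 between 20 and 40 kb and 5 beyond. A forkhead word was in 4 of the 26 windows, a share close to the 15.1% of all pooled windows. Further on, pooled summits of rank 4551 and 4868 lay 41.3 kb and 57.2 kb from the TSS, and each had a summit within 250 bp in all 3 replicates. In all, 15 of the 26 had such a neighbour in every replicate, against 35.7% of all 30000 pooled summits. The 15 include the 3 IDR summits and are not all separate sites. The pooled summit at 9040 bp, for example, was matched in replicates 1 and 2 only by the summits beside the one at 8796 bp.

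**Figure D3:**
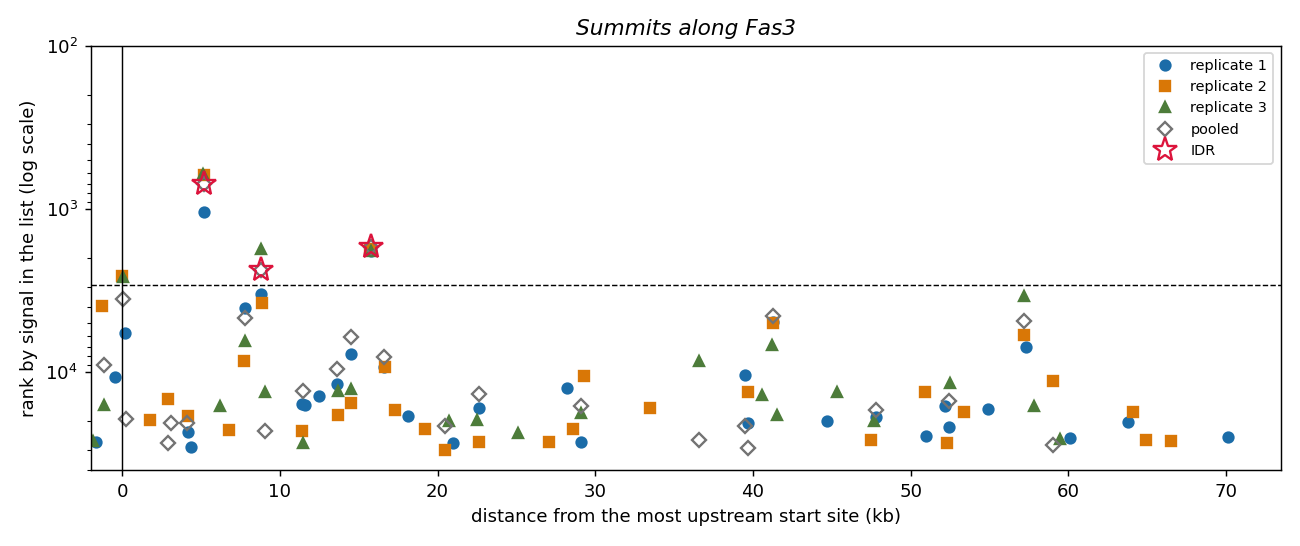
Every summit in the Fas3 span by its distance in kb from the TSS (x axis) and its rank in its list (y axis, log scale, strongest at the top), with stars for IDR summits, diamonds for pooled summits and filled symbols for the 3 replicates. The 3 IDR summits lie 5.18, 8.80 and 15.8 kb into the gene, and no summit beyond 20 kb reaches rank 2919, the dashed line.

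None of the other 6 genes had an IDR peak or a leading peak of any replicate in its span. bap (bagpipe), the NK homeobox gene of the visceral mesoderm that lies next to tin, had no summit in the pooled list. It had a promoter summit of rank 15796 (deposited q 0.325) in replicate 1, 23630 (0.502) in replicate 2 and 5795 (0.368) in replicate 3. These lay close together, since the summits of replicates 2 and 3 were 55 and 7 bp from that of replicate 1. Hand, a basic helix-loop-helix factor of the heart and the gut muscle, was the only one of the 10 with no summit in any list. The IDR summit nearest to the Hand TSS was 45.6 kb away, at the promoter of bsk, a kinase gene. Among 3667 other genes with a span like that of Hand, 11.8% carried an IDR summit, 28.6% had no pooled summit and 343 (9.35%) had no summit in any of the 5 lists. A missing summit says only that none was listed and does not show that FoxL1 was absent.

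H15 and mid (midline), a pair of neighbouring T-box genes related to vertebrate Tbx20 that act in heart cells, differed in their best summits. At H15 a pooled summit of rank 8415 lay 520 bp upstream of the outer TSS, with ranks of 4823 in replicate 1 and 5862 in replicate 2 and none within 250 bp in replicate 3. The replicate 1 summit had a deposited q of 0.0463, the only q under 0.05 among the 6 genes without an IDR peak. At mid the best pooled summit, 252 bp upstream, ranked 17234, and the best ranks in replicates 1, 2 and 3 were 18925, 19008 and 14111, at different places in the gene. Doc2 and Doc3 stood below Doc1. The best summit of Doc2 ranked 17653 in replicate 1 and 9749 in replicate 3, with none in replicate 2. For Doc3 the best ranks were 16288 in replicate 1 and 4282 in replicate 2, with none in replicate 3.

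Around the Doc genes the IDR peaks lay mostly outside the spans of the genes. The stretch from 2000 bp before Doc3 to 2000 bp past Doc1 is 43.8 kb long and held 5 IDR summits, of which 4 were outside the spans of the 3 genes. That is 11.4 IDR summits per 100 kb, against 2.18 per 100 kb over the main chromosome arms, a description with no test. The first of these, of rank 1349, lay 6.80 kb downstream of the Doc3 TSS and 2155 bp upstream of CG5194, the only other protein-coding gene in the stretch. This summit, at chr3L:9011993, also lay just past the 3′ end of Doc2 (chr3L:9012686-9019246, minus strand). Its ranks in replicates 1, 2 and 3 were 1407, 1210 and 2523. The second, of rank 1545, lay 6.56 kb upstream of Doc2 and ranked 1366, 1431 and 1961. Both were leading peaks in every replicate, and neither had a forkhead word within 50 bp. The third, of rank 2093, lay 6.92 kb upstream of the outer TSS of Doc1 and had 2 forkhead words, but its ranks were 1684, 4097 and 4773. The last, of rank 2114, lay past the end of Doc1 and 1987 bp upstream of Argk2, and ranked 2664, 7844 and 1254.

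The stretch from H15 to mid, drawn in the same way, held 1 IDR summit in 67.3 kb, or 1.49 per 100 kb. It ranked 2461 and lay 20.9 kb downstream of the nearest H15 TSS, with 1 forkhead word. The nearest TSS of any gene was that of lncRNA:CR43713, 6287 bp away. The ranks of the summit in replicates 1, 2 and 3 were 3405, 3712 and 2098. A stronger IDR summit, of rank 1122, lay outside the stretch and between genes, 15.3 kb downstream of the mid TSS. Its nearest TSS of any gene was that of lncRNA:CR45287. From tin to bap, a stretch of 15.5 kb, the IDR list held the tin promoter summit alone. Which gene a summit between genes acts on, if any, cannot be read from a peak list.

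**Figure D4:**
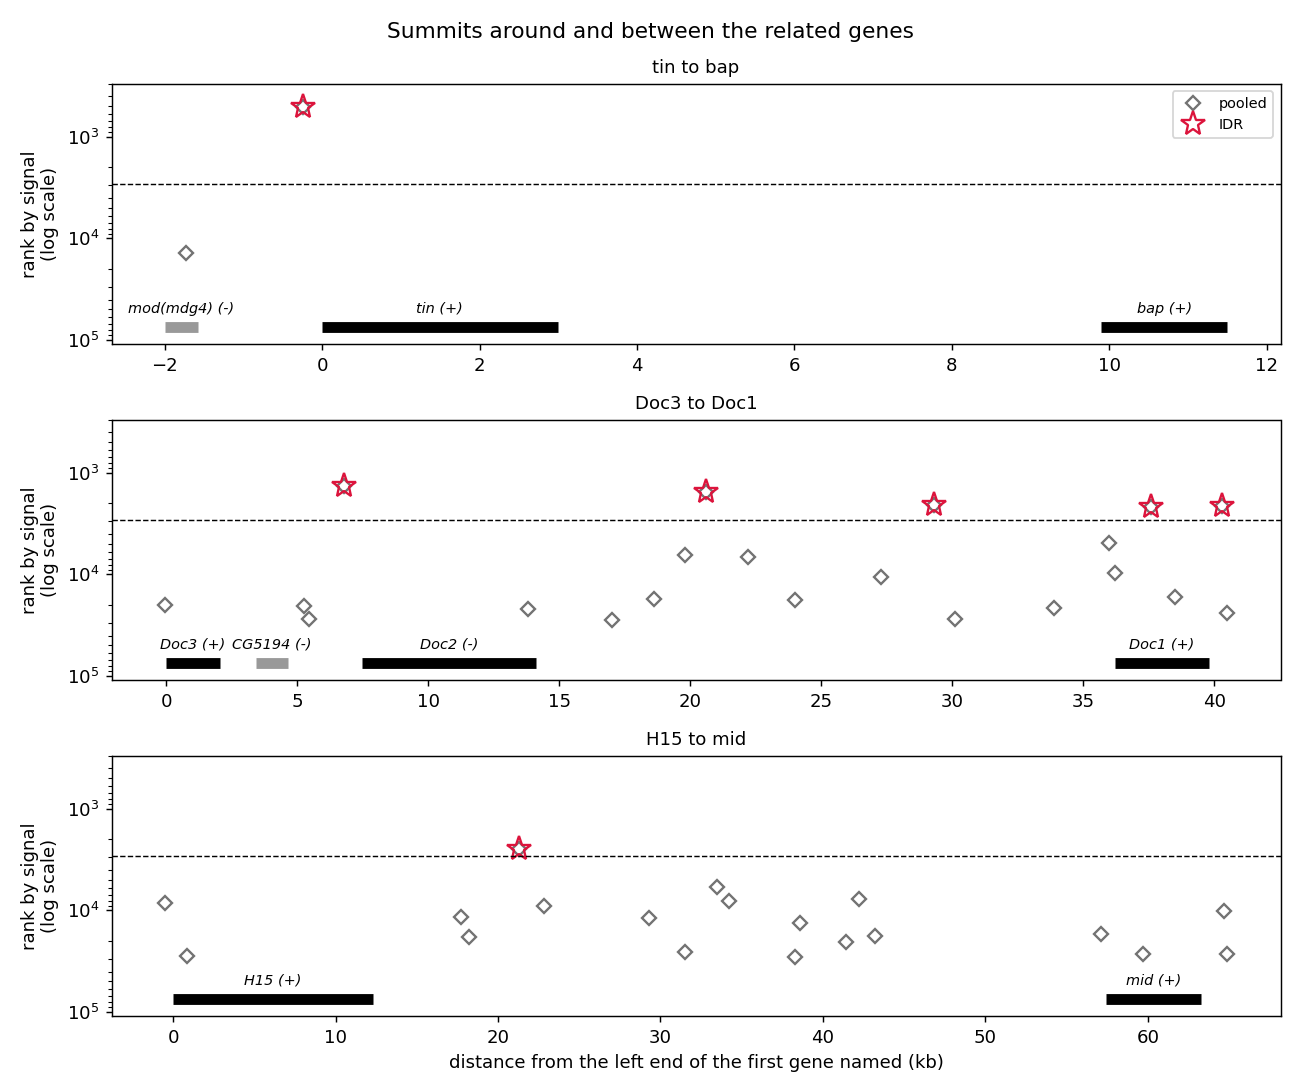
Summits of the pooled list (diamonds) and the IDR list (stars) by distance in kb from the left end of the first gene named (x axis) and rank (y axis, log scale, strongest at the top), for the stretches from tin to bap, Doc3 to Doc1 and H15 to mid. Bars mark protein-coding genes, black for the genes described and grey for mod(mdg4) and CG5194, with their strand. The stretches hold 1, 5 and 1 IDR summits above rank 2919, the dashed line.

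The promoters of these genes, taken from 250 bp upstream to 50 bp downstream of the most upstream TSS, were poor in A and T. All 10 lay below the median of 62.0% A and T over 13945 promoters, with values from 41.7% at Doc1 to 56.3% at Hand. The 7 genes bap, org-1, Doc1, Doc2, Doc3, mid and Fas3 lay below the 46.7% that marks the 5th percentile. The GC-rich word GCCGNCGN, of the kind bound by the Dpp effector Mad, lay in 6 of the 10 promoters (bap, org-1, Hand, H15, mid and Fas3), against 10.1% of all promoters. It was singled out among several words searched there. The Tinman word lay in 4 of the 10 (19.1% of all promoters), GATA words in 1 (36.1%) and the T-box word in none (2.34%). At the peaks GCCGNCGN was in none of the 6 IDR windows and none of the 39 pooled windows of these genes. Its shares over all windows were 3.25% and 5.16%. Forkhead words, which are rich in A and T, lay in 3 of the 10 promoters (bap, Doc3 and Fas3), against 46.2% of all promoters. The part of base composition in all these promoter counts was not tested. These promoter values carry no test.

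A wider list of 31 further genes of the same tissues was read in the same way. Of these, 14 carried an IDR summit (against 16.9% of all protein-coding genes), but their median span was 18.6 kb, well above the 4.17 kb of all genes. By role the genes with a summit were 6 of 11 cardiac regulators, 4 of 7 genes of inductive signals, 2 of 6 heart tube genes and 2 of 7 visceral mesoderm regulators. The median spans of these roles differed too, at 25.3 kb for the cardiac regulators, 32.9 kb for the inductive signals, 16.9 kb for the heart tube genes and 5.83 kb for the visceral mesoderm regulators, and the counts were not compared between roles. The strongest peaks were at ush (u-shaped), which encodes a partner of GATA factors, with rank 8, at Mef2, which encodes a muscle differentiation factor, with rank 27, and at Sur, which encodes a sulfonylurea receptor of the heart, with rank 81. The ranks of ush and Mef2 are the best of several, since ush held 11 IDR summits in a span of 66.3 kb and Mef2 held 5 in 47.4 kb. Sur held 1 IDR summit in a span of 18.6 kb, with a best rank of 211 in replicate 1, 77 in replicate 2 and 34 in replicate 3. No share over genes of like span is given for the further genes. Next came the Dpp receptor gene tkv (rank 724), the zinc-finger gene zfh1 (rank 848), the FGF ligand gene ths (rank 935), dpp itself (rank 1293) and the cardiac GATA factor gene pnr (rank 1429). A leading peak in every replicate was found at 10 of the 31 genes, among them these 8, which were named for their IDR rank. In single replicates 16.9%, 17.2% and 16.2% of all protein-coding genes, most with shorter spans, had a leading peak. No share with one in all 3 replicates is given, so the count of 10 was not read further. The visceral forkhead gene bin (biniou), named after its values were seen, had an IDR summit of rank 1882 but was uneven, with a best rank of 828 in replicate 1, 3367 in replicate 2 and 10185 in replicate 3.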

How the data were processed

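Peak lists of 3 replicates, of their pool and of the IDR procedure were used as deposited, in narrowPeak format on dm6 per the file headers and deposited descriptions. Replicate and pooled lists were called by the authors as relaxed input for IDR, against 1 shared input alignment. Per the labels, chromatin was sonicated to 200 to 800 bp. A free-text label calls the samples input controls, while the assay and antibody labels mark them as immunoprecipitations, as which they were treated. The embryos' age is taken from the source name, because the value in the age field cannot be an embryo's age in hours. No source used here names the aligner, the caller or the IDR cutoff. The signal of column 7 is the authors' own peak value, used only to rank peaks within a list, and column 9 is the deposited −log10 of the q-value. Each relaxed list holds a fixed 30000 peaks, so their number says nothing of enrichment.

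Summits were column 2 plus column 10. Genes came from Ensembl release 115 without transposable elements, on 6 arms whose release 6 lengths contain every peak. Summits in 2 lists were matched within 250 bp, and motifs were searched within 50 bp. Promoters were within 500 bp of a TSS. Counting was tested on simulated data. Python 3.11.15, NumPy 2.4.6, pandas 2.3.3 and matplotlib 3.10.9 were used. All values are descriptions, since there is 1 group and no contrast, and replicates come from 1 strain. The 10 genes, the further list and the motifs were chosen with earlier results of these data known. Named genes are the 10, genes sharing or nearest to their summits or between them, and up to 8 further genes by best IDR rank. The synonym lea was matched to robo2.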

Additional observations from a re-analysis of the deposited data

How the results depend on the processing

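The number of the 10 genes with an IDR summit was 3 or 4 under 6 alternatives (a reach of 1000 or 5000 bp upstream, summits near a TSS, the stronger IDR peaks, peaks with q under 0.05, any overlap of the peak). Their 6 IDR summits fell to 3 within 1000 bp of a TSS, which left out Fas3, and to 3 in the stronger 1459 IDR peaks, which left out Doc1 and 2 of the Fas3 summits. With 1459 leading peaks 3 genes carried one in every replicate (tin, org-1 and Fas3). With 5838 each replicate had 5, the additional gene being H15 in replicate 1, Doc3 in replicate 2 and bap in replicate 3. By q under 0.05 the replicates had 5, 4 and 3 genes. For these alternatives no share of all protein-coding genes is given. The counts therefore show only how the number for the 10 genes moved, and no excess over other genes. Leaving out 1 replicate at a time gave 4 genes with a leading peak each time, and 5 of the 6 IDR summits with a leading peak in the replicates left. Neither could come out otherwise. Each replicate alone had 4 genes, and the remaining Fas3 summit was not leading in replicates 1 and 2. The pooled and IDR lists were not remade, so these values say nothing of how those lists depend on 1 replicate. The forkhead count of 3 windows became 5 of 6 within 100 bp (44.6% of all IDR windows), and 0 with GTAAACA alone. The depth is unknown, so weak or missing summits cannot be told from limited depth. No paired analysis was possible because there is only 1 group.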

Other observations

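At bap the summits of replicates 1, 2 and 3 lay 15, 70 and 22 bp upstream of the TSS, at ranks of 15796, 23630 and 5795, although the pooled list had no summit anywhere in the bap span. Their deposited q values were 0.325, 0.502 and 0.368, none under 0.05. How often such weak summits lie this close together at other promoters was not tested.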
